A study of Mus musculus with 6 samples.

Results

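The arginine metabolism and iNOS genes of monocytic MDSCs (M-MDSCs) are described here. They are 8 genes picked by name for the uptake, breakdown, resynthesis and further use of arginine, namely Slc7a1, Slc7a2, Nos2, Arg1, Arg2, Ass1, Asl and Odc1. All 8 were found by their symbol among the 34745 genes of the deposited count table, and all 8 were among the 12537 genes that passed the filter on low counts. The study sequenced RNA of M-MDSCs that were induced from mouse bone marrow (BM) with GM-CSF and IL-6. It describes cell sorting, but its sequencing methods do not say how these cells were sorted. The WT mice of the study were purchased C57BL/6 mice with the intact Mtor gene. The mTOR-/- group came from Lyz-mTOR mice, bred from Lyz-Cre and Mtor flox/flox mice that another institute provided. Their strain is not given. In them the floxed Mtor alleles are deleted by Cre under the lysozyme promoter. The deletion is therefore limited to cells that have switched on that myeloid promoter. The groups also differ in the Cre and in the origin of the mice, which cannot be told apart here from the loss of Mtor. There were 3 libraries per group, the same number as the design text gives for mice. The mouse ages, and whether each library came from its own mouse, are not given in the sources used here.

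Arginine enters myeloid cells mainly through the cationic amino acid transporters CAT1 and CAT2. Inside the cell, inducible nitric oxide synthase (iNOS) turns it into nitric oxide and citrulline, while the arginases turn it into ornithine and urea. Citrulline can be converted back to arginine, and ornithine feeds the synthesis of polyamines. MDSCs are known for using iNOS and arginase 1 to restrain T cells, by nitric oxide and by the removal of arginine from their surroundings.

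Total counts were 12317507 to 12903191 per library in the mTOR-/- group and 14066578 to 14768126 in the WT group. Over these totals, without TMM factors, a floor of 3 counts stood at 0.203 to 0.244 CPM. All other CPM values are counts scaled to a common library size, with TMM factors. Mtor was counted 980, 875 and 929 times in WT and 883, 983 and 908 times in mTOR-/- libraries (log2 fold change 0.15, adjusted p = 0.442, edgeR). Counts over the whole gene do not check the labels where only some exons are deleted, so every direction given here rests on the labels. Of the monocyte and M-MDSC markers, all 10 were detected in every library. The T cell and NK cell markers Cd3e, Cd4, Cd8a and Ncr1 had 0 counts in all 6 libraries, which allows up to the floor above. The NK cell marker Klrb1c, too low to be tested, had 9, 11 and 7 counts in WT and 0 in each mTOR-/- library. Intervals and floors cover counting error only.

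Of the 8 arginine genes, 1 was called and 7 were not. A gene was called when its adjusted p was under 0.05 and its fold change at least 2 between the groups (edgeR's quasi-likelihood test, adjusted over all tested genes). The gene called was Nos2, which was lower in the mTOR-/- libraries. Over all tested genes, 0.654% were called lower, 1.04% were called higher and 1.69% were called in either direction. With the adjusted p alone and no fold threshold, Nos2 was still the only gene of the 8 past the test, where 4.04% of all tested genes were. The groups did not overlap in CPM for Nos2 and Ass1, which is 2 of 8 genes, where 28.4% of all tested genes had groups that did not overlap. The median log2 fold change was -0.04 over the 8 genes and 0.0049 over all tested genes. In the 8 genes, 3 log2 fold changes were above 0 and 5 were below.

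**Figure D1:**
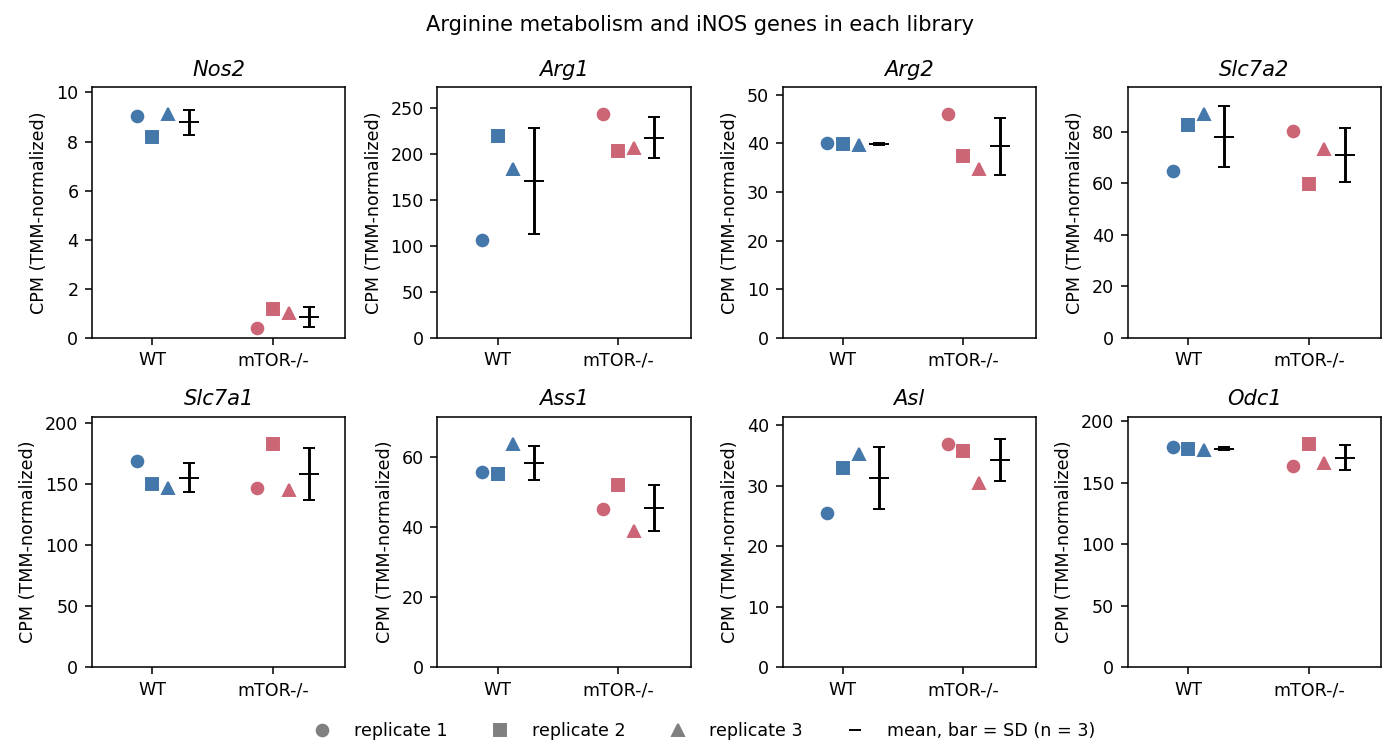
Level of each of the 8 genes in each library, as TMM-normalized CPM on linear axes that start at 0. Symbols mark the replicates and the black bars give the mean and SD of 3 libraries. Nos2 lies at 8.20 to 9.12 CPM in WT and at 0.408 to 1.16 CPM in mTOR-/- libraries. Of the other genes, only Ass1 has groups that do not overlap, at 55.2 to 63.8 CPM in WT and 39.0 to 52.2 CPM in mTOR-/- libraries.

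Nos2 (ENSMUSG00000020826, chromosome 11, 78920787 to 78960254 in GRCm38, forward strand) encodes iNOS, the enzyme that makes nitric oxide from arginine. Its counts were 127, 120 and 128 in WT and 5, 15 and 13 in mTOR-/- libraries. Scaled, these were 9.03, 8.20 and 9.12 CPM in WT and 0.408, 1.16 and 0.994 CPM in mTOR-/- libraries. Every mTOR-/- library was far below every WT library, and the WT libraries were close to each other. Exact Poisson 95% intervals reached from 0.132 to at most 1.91 CPM in the mTOR-/- libraries and from 6.80 to 10.8 CPM in the WT libraries, so that counting error alone did not bridge the groups. Nos2 was 10.1-fold lower in mTOR-/- M-MDSCs, a log2 fold change of -3.34 (standard error 0.39, 95% interval -4.23 to -2.46, adjusted p = 0.00255, edgeR). With each library left out in turn, it stayed called, at log2 fold changes from -3.63 to -3.02 and adjusted p from 0.00479 to 0.0176.

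The RNA was from bulk cells, so fewer cells that express a gene and less of its RNA per cell cannot be told apart. Summed markers of mast cells and basophils and of dendritic cells were also apart between the groups, while those of granulocytes overlapped. The 8 mast cell and basophil markers summed to 1240 to 1308 CPM in the WT libraries and 421 to 474 CPM in the mTOR-/- libraries. Of that sum, Cpa3 alone averaged 694 CPM in WT and 135 CPM in mTOR-/- libraries. Of the 7 that were tested, Cpa3, Kit and Mcpt8 fell, with log2 fold changes of -2.37, -1.05 and -1.09, while the mast cell protease gene Mcpt4 had 0 counts in every library. The other 4 tested markers, named after their values had been seen, were not called. Gata2, with a log2 fold change of -0.79, passed by the adjusted p alone (0.00973, edgeR) but was short of the fold threshold. Tpsb2 and Ms4a2 had log2 fold changes of -2.05 and -0.65, and Fcer1a went the other way, at 0.45 (adjusted p = 0.207, 0.457 and 0.610, edgeR). The 9 dendritic cell markers summed to 108 to 220 CPM in WT and 352 to 442 CPM in mTOR-/- libraries. Of that sum, H2-Ab1 averaged 57.5 CPM in WT and 169 CPM in mTOR-/- libraries, and Itgax averaged 90.7 and 172 CPM (WT first). Of the 6 tested, Ccr7 and H2-Ab1 rose, with log2 fold changes of 1.26 and 1.56. Itgax and Zbtb46, named after their values had been seen, were not called, at log2 fold changes of 0.92 and 0.81. Siglech was at 0 throughout, and Clec9a and Flt3, named after their values had been seen, had log2 fold changes of -0.39 and -0.46 and were not called. Summed granulocyte markers were at 2115 to 2451 CPM in WT and 2401 to 2731 CPM in mTOR-/- libraries. Of that sum, Mmp8 alone was 1078 to 1321 CPM in WT and 1395 to 1798 CPM in mTOR-/- libraries. It was not called and is named after its values had been seen. Among the granulocyte markers Ly6g rose and Ltf fell, and none of the 10 was at 0. The part of these cells in the Nos2 result was not tested.

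Summed monocyte markers were 4006 to 5785 CPM in the WT libraries and 2987 to 3604 CPM in the mTOR-/- libraries. Of that sum, Lyz2 alone was 2327 to 3910 CPM in WT and 903 to 1196 CPM in mTOR-/- libraries. The other 9 markers summed to 1679 to 1914 CPM in WT and 2084 to 2508 CPM in mTOR-/- libraries, which is the opposite order. The study genotyped the Lyz-Cre mice for a mutant and a WT Lyz allele, and the part of the mutant allele in the Lyz2 level was not tested. In this list Fn1 and F13a1 rose, and Lyz2, whose promoter drives the Cre, fell by 1.68 on the log2 scale (adjusted p = 0.00255, edgeR). By the adjusted p alone 6 of the 10 passed, the other 3 being Ly6c2, Cd14 and Csf1r, which are named here after their values had been seen. Ly6c2, which encodes the Ly6C antigen used to define M-MDSCs, had a log2 fold change of -0.999 that was just short of the fold threshold, and Cd14 and Csf1r had 0.95 and 0.50 (adjusted p = 0.0426, 0.00128 and 0.0136, edgeR). The macrophage markers held no called gene among 6 tested, and their sums were 946 to 1059 CPM in WT and 744 to 919 CPM in mTOR-/- libraries. Their smallest adjusted p were those of Vcam1 and Cd68 (0.0888 and 0.0927, edgeR), and Marco was at 0. Lymphocyte markers summed to 1.42 to 4.28 CPM over all 6 libraries, and erythroid markers were at 6.68 to 11.9 CPM in WT and 2.47 to 3.82 CPM in mTOR-/- libraries. Among lymphocyte markers only Cd79a was tested, and of the erythroid markers the globin genes Hbb-bs and Hbb-bt were tested, and none of these 3 was called.

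Arg1 (ENSMUSG00000019987, chromosome 10, 24915208 to 24927470, reverse strand) encodes the cytosolic arginase that competes with iNOS for arginine. It was at 107, 219 and 184 CPM in the WT libraries and at 243, 203 and 206 CPM in the mTOR-/- libraries. WT replicate 1 was the lowest of the 6 libraries, and WT replicate 2 was higher than mTOR-/- replicates 2 and 3, so the groups overlapped. The log2 fold change of Arg1 was 0.36 (standard error 0.22, 95% interval -0.14 to 0.85, adjusted p = 0.388, edgeR), which leaves room for folds between 0.908 and 1.80. Without WT replicate 1 the log2 fold change was 0.10 (adjusted p = 0.758), the lowest among the fits that left out 1 library, and without WT replicate 2 it was 0.58 (adjusted p = 0.225), the highest.

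WT replicate 1 was also the lowest of the 6 libraries for Asl, and the lowest WT library for Slc7a2, both described below. In that library the dendritic cell markers summed to 108 CPM, against 220 and 218 CPM in WT replicates 2 and 3. The integrin gene Itgax had 731 counts there, against 1712 and 1451, and the transcription factor gene Irf8 had 325, against 623 and 628. Low values there were not limited to dendritic cell markers. Ly6g had 12 counts, against 35 and 71, and Lyz2 had 32743, against 57236 and 50648. The granulocyte marker Camp went the other way, with 82 counts, against 33 and 64. The part of this library's marker levels in the spread of Arg1 was not tested. Itgax, Irf8, Ly6g, Lyz2 and Camp were singled out here after their values had been seen.

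Arg2 (ENSMUSG00000021125, chromosome 12, 79130777 to 79156301, forward strand) encodes the mitochondrial arginase. Its level was 40.2, 39.9 and 39.7 CPM in the WT libraries and 46.0, 37.4 and 34.8 CPM in the mTOR-/- libraries. The mTOR-/- libraries lay on both sides of the narrow WT range, with a log2 fold change of -0.02 (standard error 0.14, 95% interval -0.32 to 0.29, adjusted p = 0.960, edgeR). A change of 2-fold lies outside that interval. Arg2 shares 285 exonic bases with Vti1b on the opposite strand in the GENCODE M21 annotation, and the strand setting of the counting is not given in the sources used here, so some reads could belong to either gene.

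**Figure D2:**
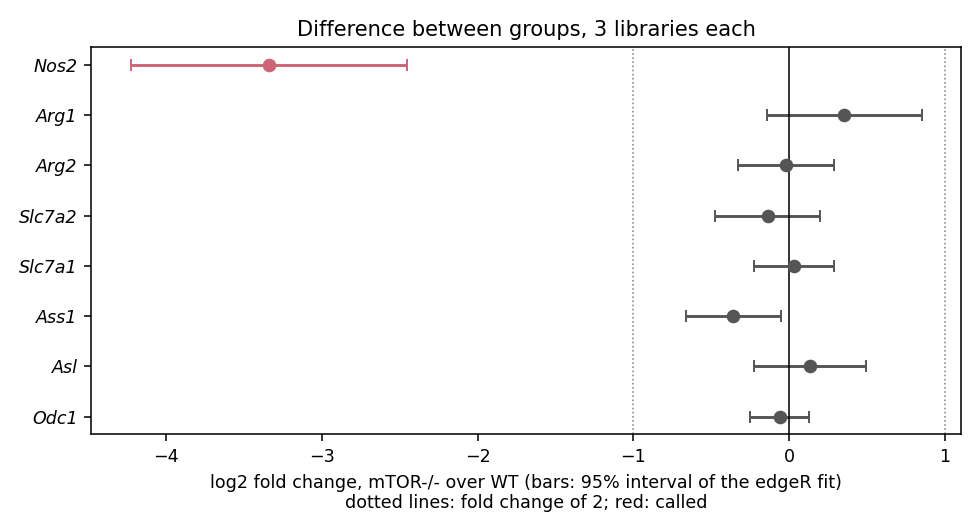
Log2 fold change of each gene, mTOR-/- over WT, with its 95% interval from the edgeR fit on 3 libraries per group. Dotted lines mark a fold change of 2. The interval of Nos2 lies at -4.23 to -2.46, beyond the line, and those of the other 7 genes lie between the lines.

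The transporters did not separate the groups. Slc7a1 (ENSMUSG00000041313, chromosome 5, 148327410 to 148399904, reverse strand) encodes CAT1, the widely expressed arginine transporter. It was at 169, 150 and 147 CPM in the WT libraries and at 147, 183 and 146 CPM in the mTOR-/- libraries, so that the ranges were nested and the log2 fold change was 0.03 (95% interval -0.23 to 0.29, adjusted p = 0.908, edgeR). Slc7a2 (ENSMUSG00000031596, chromosome 8, 40862396 to 40922308, forward strand) encodes CAT2, the transporter that activated myeloid cells are known to induce together with iNOS or arginase 1. It stood at 64.9, 82.9 and 87.0 CPM in the WT libraries and at 80.4, 59.7 and 73.6 CPM in the mTOR-/- libraries. The Slc7a2 ranges overlapped as well, and the log2 fold change was -0.14 (95% interval -0.47 to 0.20, adjusted p = 0.641, edgeR). The interval of Slc7a2 and that of Nos2 were far apart, although the difference between the genes was not tested.

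Ass1 and Asl encode argininosuccinate synthase and argininosuccinate lyase, the pair of enzymes that rebuild arginine from citrulline. Ass1 (ENSMUSG00000076441, chromosome 2, 31470207 to 31520672, forward strand) was at 55.7, 55.2 and 63.8 CPM in the WT libraries and at 45.2, 52.2 and 39.0 CPM in the mTOR-/- libraries. Every mTOR-/- library was below every WT library, by a small margin between WT replicate 2 and mTOR-/- replicate 2. The log2 fold change of Ass1 was -0.36 (standard error 0.14, 95% interval -0.66 to -0.05). This interval lies below 0, but the gene did not pass the test after adjustment over all genes (edgeR, adjusted p = 0.176). It did not pass without any 1 of the libraries either, at adjusted p from 0.0893 to 0.477.

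Asl (ENSMUSG00000025533, chromosome 5, 130011258 to 130029247, reverse strand) was at 25.4, 32.9 and 35.3 CPM in the WT libraries and at 36.9, 35.7 and 30.4 CPM in the mTOR-/- libraries. These ranges overlapped, and the log2 fold change was 0.14 (95% interval -0.22 to 0.50, adjusted p = 0.666, edgeR). Per kilobase of exon, the ratio of Ass1 to Asl within a library was 4.38, 3.35 and 3.62 in the WT libraries and 2.45, 2.93 and 2.57 in the mTOR-/- libraries. The WT ratios were all above the mTOR-/- ratios, which is a description made without a test.

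A promoter motif is shown for Ass1, the only gene with a promoter window whose groups did not overlap, although it did not pass the test. A RefSeq promoter window of GRCm38.p6, from 250 bases before to 50 after the start, was at hand for 3 of the 8 genes, Ass1, Slc7a1 and Odc1. The windows were searched on both strands for 10 motifs. The letters TATAAA stood for the core promoter box that binds TBP, TTGCNNAA for C/EBP sites, TTCNNNGAA for STAT sites and GAAANNGAA for IRF sites. For AP-1 the letters were TGANTCA, for ATF4 they were TGATGNAA, and for PU.1 they were GAGGAAGT. A HIF site was searched as ACGTG, an E-box as CACGTG, and NF-kB by its consensus. The E-box contains the HIF letters on both strands, so these matches overlap. In the Ass1 window the E-box was found 36 bases before the RefSeq start, and apart from the HIF letters inside it no other motif was found. It is shown here in its 30 bases at chr2:31470222-31470251, forward strand, which GENCODE M21 counts as exonic, with the E-box in capitals.
Ass1 E-box: cgcgcccgtcccCACGTGtcccaggttcct
An E-box was present in 7.15% of all 32851 promoter windows, and the HIF letters in 19.6%. The 2 windows of Slc7a1 held an AP-1 motif in the one and the TBP box and a STAT motif in the other, which 7.81%, 13.6% and 8.30% of all windows held. The Odc1 window held none of the motifs. These matches describe the letters of the windows and not binding.

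Odc1 (ENSMUSG00000011179, chromosome 12, 17544873 to 17551502, forward strand) encodes ornithine decarboxylase, which opens polyamine synthesis from the ornithine that arginase releases. It was nearly level in the WT group, at 179, 178 and 177 CPM, and stood at 163, 182 and 167 CPM in the mTOR-/- libraries. The WT values fell inside the mTOR-/- range, and the log2 fold change was -0.06 (standard error 0.09, 95% interval -0.25 to 0.13, adjusted p = 0.728, edgeR).

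Levels of different genes were compared per kilobase of exon, with the exon lengths of GENCODE M21. Arg1 was the highest of the 8 genes in both groups, at 76.4 ± 25.9 CPM per kilobase (SD, n = 3) in WT and 97.7 ± 9.97 CPM per kilobase (SD, n = 3) in mTOR-/- M-MDSCs. Next came Odc1, at 52.2 ± 0.349 and 50.1 ± 2.87 CPM per kilobase, then Arg2, at 27.9 ± 0.171 and 27.6 ± 4.12, and Ass1, at 24.1 ± 2.0 and 18.8 ± 2.73 CPM per kilobase (WT first). Slc7a1 followed at 13.5 ± 1.02 in WT and 13.8 ± 1.84 CPM per kilobase in mTOR-/- M-MDSCs. Slc7a2 (8.56 ± 1.28 and 7.80 ± 1.15), Asl (6.46 ± 1.06 and 7.10 ± 0.720) and Nos2 (1.99 ± 0.115 and 0.193 ± 0.0894 CPM per kilobase) closed the order, which was the same in both groups.

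Neighbours in this order were mostly apart, but not all of them. In WT the 3 levels of Arg1, 47.9 to 98.5 CPM per kilobase, enclosed those of Odc1, whereas in mTOR-/- libraries Arg1 was always above Odc1. The ranges of Slc7a2 and Asl overlapped in both groups. Their order also depended on the length used, since the WT ratio of Slc7a2 to Asl was 1.33 per kilobase of exon and 0.899 in the deposited FPKM values. The lengths behind those FPKM values, worked back from the counts, were 18560 bases for Slc7a2 and 6646 for Asl, against 9135 and 4831 exonic bases in GENCODE M21.

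**Figure D3:**
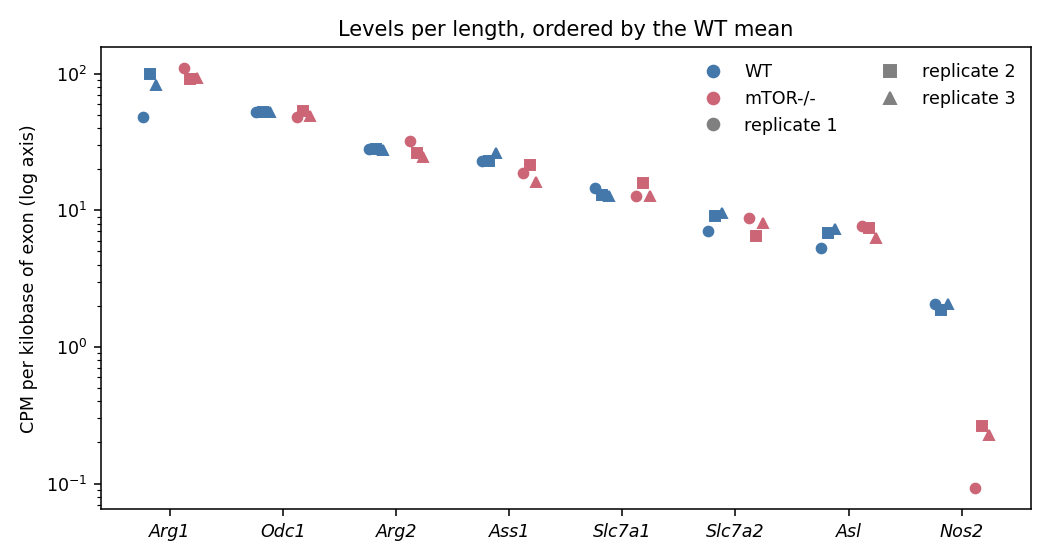
Level of each gene in each library as CPM per kilobase of GENCODE M21 exon, on a log axis, ordered by the WT mean. Blue marks WT, red marks mTOR-/-, and symbols mark replicates. Arg1 leads and Nos2 is last in both groups, and the gap below Asl is wider in the mTOR-/- libraries, where Nos2 averages 0.193 CPM per kilobase.

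The genes for the enzymes that compete for arginine were also compared within each library. Within a library, the level of Arg1 per kilobase was 23.4, 53.0 and 40.0 times that of Nos2 in the WT libraries. In the mTOR-/- libraries it was 1183, 348 and 411 times as high, so that the lowest mTOR-/- ratio was above the highest WT ratio. The value of 1183 rests on the 5 Nos2 counts of mTOR-/- replicate 1. The ratio of Arg1 to Arg2 was 1.70, 3.53 and 2.98 in WT and 3.39, 3.48 and 3.8 in mTOR-/- libraries, and that of Slc7a1 to Slc7a2 was 2.06, 1.43 and 1.34 in WT and 1.45, 2.43 and 1.57 in mTOR-/- libraries. Both of these ratios overlapped between the groups. They were not tested, and none depends on the scaling of the libraries.

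The other genes of the pathway were taken from 6 lists with 76 genes in all, of which 66 were tested. Only Il6ra was called, in the upward direction, where 1.69% of all tested genes were called in either direction and 1.04% upward, and the median log2 fold change over the 66 genes was 0.01. By the adjusted p alone, Il6ra, Csf2ra and Dhps passed. The groups did not overlap for 24 of the 66 genes, where they did not for 28.4% of all tested genes.

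None of 8 tested genes for other arginine and ornithine enzymes was called. The neuronal and endothelial synthase genes were at or near 0, with 0 counts of Nos1 in every library and at most 8 counts of Nos3, and the most Nos3 counts were in mTOR-/- replicate 3, where Nos2 had 13. The smallest adjusted p in this list were those of Gatm, the first enzyme of creatine synthesis from arginine, and Pycr1, which makes proline. Gatm had a log2 fold change of -0.28 (adjusted p = 0.198, edgeR) and Pycr1 one of -0.61 (adjusted p = 0.211, edgeR). Of the urea cycle genes Otc and Cps1, which are active in liver, there were 0 counts in every library.

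None of the 15 polyamine genes was called, and 8 had log2 fold changes above 0 and 7 below. Dhps, whose product starts the hypusination of eIF5A with spermidine, had 467, 553 and 521 counts in WT and 309, 219 and 239 counts in mTOR-/- libraries. The groups were apart, and the log2 fold change of Dhps was -0.84 (standard error 0.17, adjusted p = 0.0314, edgeR), short of the fold threshold. Azin1, an inhibitor of the antizymes that degrade ornithine decarboxylase, had 3130, 3469 and 3195 counts in WT and 2356, 2011 and 2201 in mTOR-/- libraries (log2 fold change -0.41, adjusted p = 0.0536, edgeR).

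Among other cationic amino acid transporters, none of 8 tested genes was called. Slc38a9, the lysosomal arginine sensor upstream of mTORC1, had 393, 619 and 445 counts in WT and 608, 606 and 804 counts in mTOR-/- libraries. The groups were apart in CPM, by 0.63 on the log2 scale, but the gene did not pass (edgeR, adjusted p = 0.0869, standard error 0.18). Slc7a7, the light chain of an arginine exporter, had a log2 fold change of 0.59 (adjusted p = 0.198, edgeR).

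The nitric oxide synthases need tetrahydrobiopterin as a cofactor, and the 5 tested genes for its synthesis and recycling held no called gene. Gch1, the rate-limiting enzyme of that synthesis, had 207, 235 and 260 counts in WT and 240, 148 and 200 in mTOR-/- libraries (log2 fold change -0.09, standard error 0.22, adjusted p = 0.847, edgeR). It was named after its values had been seen. Pts, an enzyme of the same synthesis, had a log2 fold change of 0.47 (adjusted p = 0.179, edgeR). The 7 arginine methyltransferases held no called gene either, with Prmt1 and Prmt6 nearest to the threshold (log2 fold changes -0.72 and 0.30, adjusted p = 0.177 and 0.304, edgeR).

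Of the 24 genes listed as known regulators of Nos2 or Arg1, 23 were tested and 1 was called. Il6ra, the receptor subunit that binds IL-6, rose from 168, 115 and 103 counts in WT to 229, 263 and 206 counts in mTOR-/- libraries. The log2 fold change of Il6ra, 1.01 (edgeR, adjusted p = 0.0407, standard error 0.23), was just past the fold threshold. The call was lost without mTOR-/- replicate 2, without WT replicate 2, without WT replicate 3, with the replicate block and with no filter on low counts. Csf2ra, the subunit that binds GM-CSF, was at 6853, 7771 and 6074 counts in WT and at 8533, 9284 and 15487 counts in mTOR-/- libraries, with mTOR-/- replicate 3 the highest. Its log2 fold change of 0.84 (adjusted p = 0.0477, edgeR) was short of the fold threshold.

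Of factors known for switching on Nos2, Nfkb1, Rela and Irf1 were not called. They had log2 fold changes of 0.04, 0.05 and 0.37 (adjusted p = 0.826, 0.823 and 0.223, edgeR). Stat6 and Cebpb, known for switching on Arg1, had log2 fold changes of 0.05 and -0.31 (adjusted p = 0.772 and 0.228, edgeR). These 5 genes were singled out after their values had been seen.

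**Figure D4:**
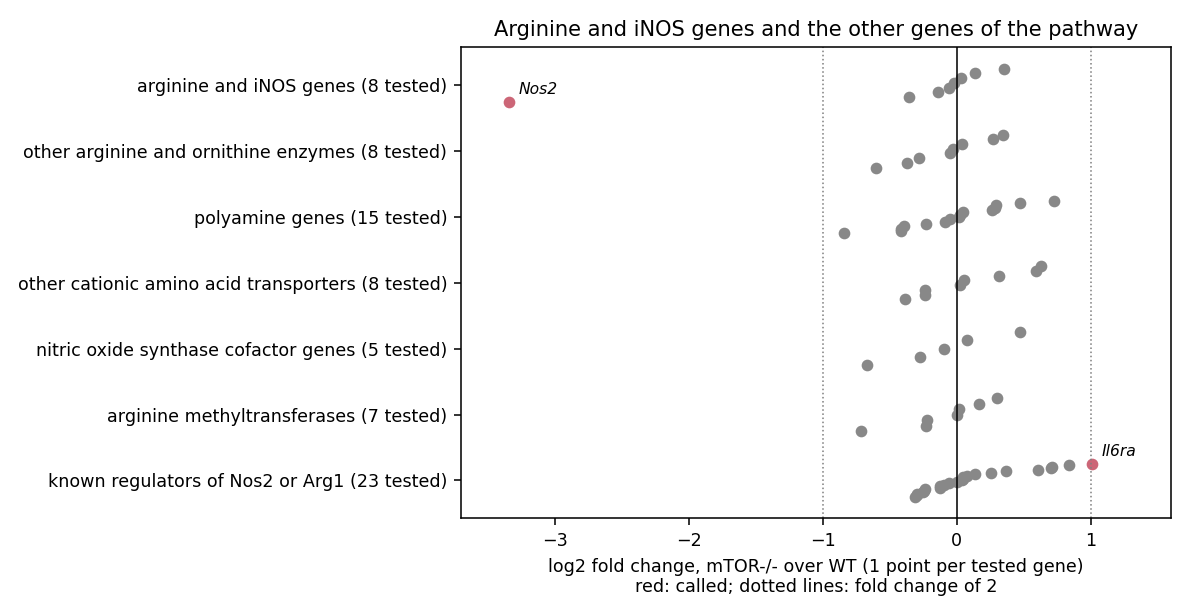
Log2 fold change, mTOR-/- over WT, of the 8 arginine and iNOS genes and of the 66 other tested genes of the pathway, 1 point per gene and 1 row per list. Red marks called genes and dotted lines a fold change of 2. Nos2 at -3.34 and Il6ra at 1.01 are the called genes, and all other points lie between the lines.

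The patterns of Nos2 and Arg1 over the 6 libraries were set beside those of all tested genes by the root mean square distance of centred log2 CPM. The genes nearest to Nos2 were the adhesion receptor gene Adgrg1, Rbm44 and the noncoding gene Cep83os, at distances of 0.299, 0.413 and 0.484, where the median over all tested genes was 1.68. Adgrg1 had 742, 797 and 748 counts in WT and 56, 112 and 150 counts in mTOR-/- libraries, with mTOR-/- replicate 1 the lowest as for Nos2. Rbm44 had 14 or 15 counts in each WT library and 0 in each mTOR-/- library. The genes nearest to Arg1 were Fam57a, Dcxr and Setd4, at distances of 0.0370, 0.0729 and 0.090 with a median of 0.454 over all tested genes. These shared the low value of WT replicate 1, where Dcxr had 57 counts against 119 and 108 in WT replicates 2 and 3. Such likeness over 6 libraries that fall into 2 groups is a description, and how many other genes share it was not counted.

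**Figure D5:**
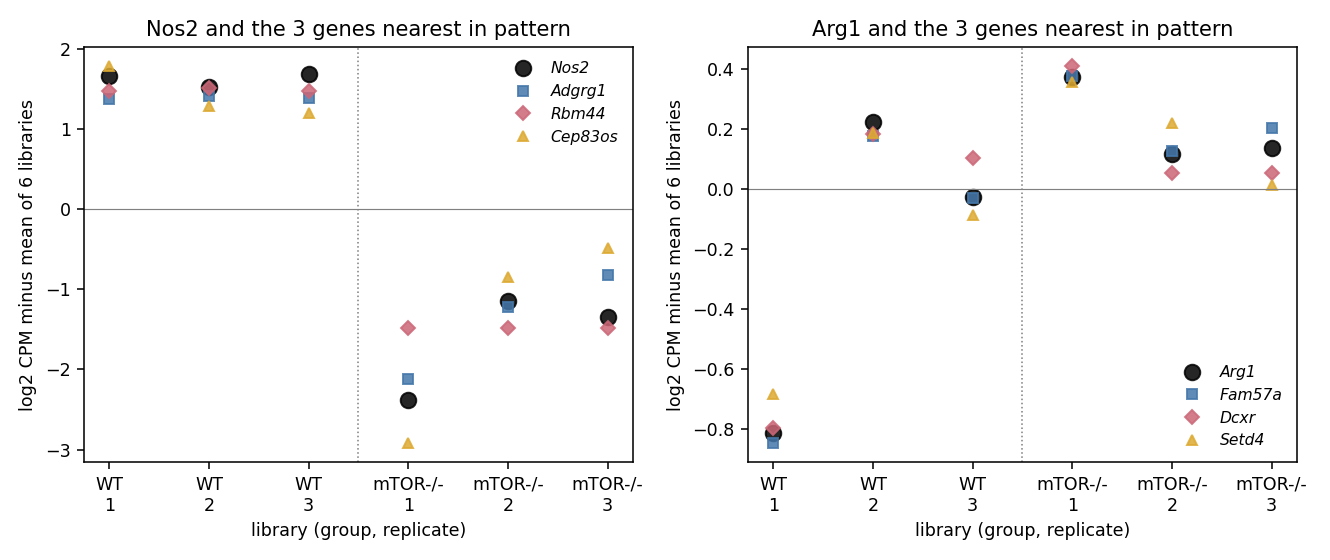
Log2 CPM of Nos2 (left) and Arg1 (right) and of the 3 genes nearest to each in pattern, in each library, with the mean over the 6 libraries of each gene subtracted. Nos2 and its nearest genes separate WT (left of the dotted line) from mTOR-/- libraries, while Arg1 and its nearest genes are set apart in WT replicate 1, where Arg1 is at -0.82.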

How the data were processed

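RNA of 6 M-MDSC libraries, 3 from WT and 3 from Lyz-mTOR mice, was grouped by the sample titles. The values used were raw read counts per gene as deposited. The study's methods name Bowtie2, mm10 and HTSeq for them, while the submitters' processing notes name HISAT2 2.0.4, StringTie 1.3.0, GRCm38.p4 and mm9. The deposited gene positions equal those of GENCODE M21 (GRCm38) for 6 of the 8 genes. The authors also deposited FPKM, and the gene lengths behind these values were worked back from the counts. Their own fold changes and p-values were not used, nor were 24 columns that repeat the counts and FPKM.

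The software was edgeR 4.0.16 with limma 3.58.1 in R 4.3.3. Genes were kept by filterByExpr (minimum count 10, minimum total count 15), scaled by TMM and compared by edgeR's quasi-likelihood test. P-values were adjusted over all 12537 genes by the Benjamini-Hochberg method, and a call needed a value under 0.05 together with a 2-fold difference or more. The fit was tested on simulated data, which were counts drawn from the means of these libraries with known fold changes in some genes. Standard errors and 95% intervals come from that fit, and log2 CPM used a prior count of 2. Alternatives were DESeq2 1.42.0, the exact test of edgeR, upper-quartile or RLE scaling, other filters, no fold threshold, each library left out and the replicate block. Whether each library came from its own mouse is not given in the sources used here, so p-values measure only the spread between these libraries, which may be technical.

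The genes, lists, motifs and tests were chosen with earlier results of these data known. Genes named were the 8 genes, the called genes of each list (with fewer than 2 called, those 2 with the smallest adjusted p), Mtor, and the 3 genes nearest in pattern to Nos2 and to Arg1. Where others are named, the text says so, and some genes that the rule would name are not reported here.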

Additional observations from a re-analysis of the deposited data

How the results depend on the processing

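Nos2 stayed called in all 13 alternatives in which it was tested. With at least 10 counts required in every library Nos2 was not tested, since mTOR-/- replicate 1 had 5 counts, and 0 of the 8 genes were called. In the other 13 alternatives 1 gene was called. The other 7 genes were called in none, and their directions changed only for Arg2 and Slc7a1. Leaving out each library in turn gave log2 fold changes of -0.15 to 0.058 for Arg2, above 0 without mTOR-/- replicate 2 or 3, and of -0.095 to 0.087 for Slc7a1, below 0 without mTOR-/- replicate 2 or WT replicate 3. The pathway genes called numbered 3 with no fold threshold, 0 with no filter and 0 with the replicate block, and 0 to 1 with each library left out. All genes called numbered 357 by DESeq2, 386 by edgeR's exact test and 507 with no fold threshold, and 114 to 229 with each library left out, the lowest without WT replicate 2, against 212. Same-numbered libraries did not deviate together (correlations of -0.08, -0.03 and -0.06 across genes), so the numbers were not taken to pair the samples. With the replicate block the log2 fold change of Nos2 was -3.39 (adjusted p = 0.00823, edgeR), and 164 genes were called in all. Depth limits Nos2 most, at 5 to 15 counts in mTOR-/- libraries. The comparison of Slc7a2 with Asl on the deposited FPKM scale was added after the data had been seen.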
